A study of Homo sapiens with 8 samples.

Results

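The proteasome subunit genes of 2 human cholangiocarcinoma cell lines, SNU1079 and SSP25, are described here across a BET degrader, an mTOR inhibitor and both together. Members were protein-coding genes whose symbol begins with PSM, a letter from A to G and a number, that reached 1 TPM in 2 or more of the 8 libraries. TPM is a length-normalized share of the transcripts in a library. Of 49 genes with such a symbol 47 qualified, among 16060 genes that passed the same filter. The remaining pair, the germ-cell gene PSMA8 and the thymic gene PSMB11, were listed at 0 in every library, while the lowest value of any member was 7.08 TPM. That value belonged to PSMC3IP, a recombination factor that shares the naming pattern but is not part of the proteasome, so class counts and medians below cover the other 46 genes unless 47 is stated.

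Cells were cultured for 48 h in 4 groups: the combination of both drugs, BETp (ARV825 at 40 nM), mTORi (AZD8055 at 50 nM) and vehicle (0.01% DMSO). The labels give no doses for the combination. Both lines were labelled wild type and as liver tissue. The paper of this study reports mutations of IDH1 and ARID1A in SNU1079, so the label does not mean that these genes were unmutated. ARV825 is a chimeric degrader (PROTAC) that links BET bromodomain proteins to cereblon, so that they are tagged with ubiquitin and destroyed by the proteasome itself, and AZD8055 inhibits the mTOR kinase. Each treatment had 1 library per line, so the lines served as replicates (n = 2) where treatments were compared. The p-values measured only the spread between these libraries, and a single line has no replicate of its own. Changes are means of both lines on the log2(TPM + 1) scale, and each ± value is the standard error from limma, a linear model fitted to all genes.

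Between 13308 and 14526 genes reached 1 TPM per library, and the depth behind each value is unknown because TPM keeps no read number. Of 7 bile duct markers 5 were at 1 TPM or more in all 8 libraries, including KRT19 at 307 to 1927 TPM. The 4 hepatocyte markers summed to 8.13 to 44.14 TPM in SNU1079, mostly SERPINA1, and to 0.07 to 0.67 TPM in SSP25, while the defining gene ALB was at 0.21 TPM or less. The 4 fibroblast markers summed to 272 to 1003 TPM in SNU1079 and to 1.36 to 3.71 TPM in SSP25. In SNU1079 this was nearly all COL1A1, at 272, 546, 599 and 1003 TPM with the combination, BETp, mTORi and vehicle, whereas COL1A2 was at 0.37 TPM or less and DCN at 0.19 TPM or less. COL1A1 was lowest with the combination, as were many members, and its part in the results was not tested. Transcripts of the mitochondrial genome took 19.2%, 17.1%, 15.3% and 14.4% of TPM in SNU1079 with the combination, BETp, mTORi and vehicle. The matching SSP25 shares were 10.1%, 7.22%, 8.64% and 5.99%. A larger mitochondrial share lowers every other TPM value, and the median of all genes tested was −0.19 for the combination against vehicle.

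The proteasome degrades proteins tagged with ubiquitin. Its barrel-shaped core has outer rings of alpha subunits (PSMA genes) and inner rings of beta subunits (PSMB genes), of which PSMB6, PSMB7 and PSMB5 carry the caspase-like, trypsin-like and chymotrypsin-like active sites. A regulatory cap consists of a base, with the PSMC ATPases that unfold substrates, and a lid, whose subunit PSMD14 removes ubiquitin. In immune signaling, interferon induces PSMB9, PSMB10 and PSMB8, which replace PSMB6, PSMB7 and PSMB5 in newly made immunoproteasomes, and the activator PA28, built from PSME1 and PSME2. These forms are known for making peptides that MHC class I molecules present. Subunit genes are induced together by the transcription factor NFE2L1, which binds antioxidant response elements in their promoters.

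The 46 genes were abundant in both lines. Their TPM sum made up 0.58%, 0.699%, 0.638% and 0.692% of the total in SNU1079 with the combination, BETp, mTORi and vehicle, and 0.72%, 0.84%, 0.801% and 0.906% in SSP25. The combination library held the lowest share in both lines. The share ordered BETp and vehicle differently in the lines, with BETp highest in SNU1079 and vehicle highest in SSP25. Of transcripts outside the mitochondrial genome, the genes took 0.717%, 0.843%, 0.753% and 0.809% in SNU1079 in that order of treatments. In SSP25 they took 0.801%, 0.905%, 0.876% and 0.964%, and the combination library again held the lowest share of each line.

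Levels per transcript length differed widely among subunits that occur in equal number in the particle. In SNU1079 with vehicle, the core beta gene PSMB2 had 76.2 TPM and PSMB4 429 TPM. In SSP25 with vehicle, the lowest core gene was the alpha gene PSMA2 at 144 TPM, and the alpha gene PSMA7 reached 560 TPM (559.8). Among cap genes PSMD2, a base scaffold that binds ubiquitin receptors and shuttles, was the most abundant, at 261 to 492 TPM over the 8 libraries. PSMD5, a chaperone of base assembly, ran from 11.6 to 45.4 TPM, and the nuclear activator PSME4 from 13.7 to 22.55 TPM.

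The combination against vehicle gave the largest number of member calls among the drug comparisons. Of 47 members 3 fell and 0 rose at an adjusted p under 0.05 (limma, Benjamini-Hochberg over all genes), beside a background of 1.52% of all genes called lower, 0.293% called higher and 1.81% in either direction. All 3 were core genes, namely PSMB3 and PSMB6 of the beta ring and PSMA6 of the alpha ring. At an unadjusted p under 0.05 there were 24 of 47, against 25.8% of all genes. For 41 of 47 both lines had the lower value with the combination, against 51% of all genes.

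PSMB6, the caspase-like catalytic subunit (GRCh37 chromosome 17, 4699439 to 4701797, plus strand), had 212 TPM with the combination, 278 with BETp, 260.2 with mTORi and 320.0 with vehicle in SNU1079. In SSP25 it had 219.6, 272, 236 and 301 TPM in that order. The combination was the lowest and vehicle the highest library in both lines, with both single drugs between them. The change against vehicle was −0.52 ± 0.09 (limma adjusted p = 0.0474).

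PSMB3, a noncatalytic beta subunit (chromosome 17, 36908994 to 36920478, plus strand), had 250.3, 328, 296 and 355 TPM in SNU1079 with the combination, BETp, mTORi and vehicle, and 216, 288, 261 and 303 TPM in SSP25. It fell by 0.49 ± 0.08 (limma adjusted p = 0.0438). The order of the 4 treatments was the same in both lines. PSMA6, an alpha ring subunit (chromosome 14, 35747839 to 35786699, plus strand), had 163, 206, 195 and 221 TPM in SNU1079 and 212, 271, 258 and 318 TPM in SSP25, and fell by 0.51 ± 0.09 (adjusted p = 0.0474). Here too the combination was lowest and vehicle highest in each line.

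These 3 calls lay close to the threshold. None was made with any 1 of the 8 libraries left out, with quantile normalization or with rescaling without the mitochondrial genome, whereas a filter at 5 TPM called 6 members, adding PSMG1, PSMA4 and PSMB2.

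The promoter of PSMB3 is shown because it belongs to a called gene and holds the letters of an antioxidant response element. The 250 bases before its RefSeq start (GRCh38.p14, chr17:38752491-38752740, plus strand) are printed 5′ to 3′, with TGACNNNGC and CCAAT in capitals.

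PSMB3: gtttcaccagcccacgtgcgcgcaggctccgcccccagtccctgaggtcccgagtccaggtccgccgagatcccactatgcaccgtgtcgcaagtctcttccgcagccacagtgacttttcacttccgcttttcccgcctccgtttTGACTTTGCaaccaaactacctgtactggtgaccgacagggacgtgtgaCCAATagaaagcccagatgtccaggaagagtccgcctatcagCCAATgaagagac

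The match TGACTTTGC began 104 bases before the start. RefSeq promoter windows of 300 bases (250 before and 50 after a start) matched 41 of the 47 members by symbol. Both strands were searched. TGACNNNGC, or its reverse GCNNNGTCA, lay in a window of 15 of these 41 genes (36.6%), against 16.1% of all 27305 genes in the table, and CCAAT or ATTGG in 20 (48.8%), against 39.7%. Of the called genes, PSMA6 held neither in its windows, and PSMB6 was not matched. A match describes letters only.

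The classes differed in how low they stood, without a test between them. The 14 core genes had a median of −0.36 for the combination against vehicle, with −0.34 in SNU1079 and −0.41 in SSP25, and 13 of 14 were lower in both lines. The exception was PSMB4, with 0.04 in SNU1079 and −0.18 in SSP25. The 17 base and lid genes had a median of −0.26, −0.33 in SNU1079 and −0.22 in SSP25, with 16 of 17 lower in both lines, and the 4 activators −0.32. The lowest median was that of the 3 immunoproteasome genes, −0.56, with −0.03 in SNU1079 and −0.91 in SSP25. All genes tested had −0.19. The 3 non-ATPase base genes PSMD1, PSMD2 and PSMD4 had a median of −0.13, and the regulator PSMF1 (PI31) was at −0.12.

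**Figure D1:**
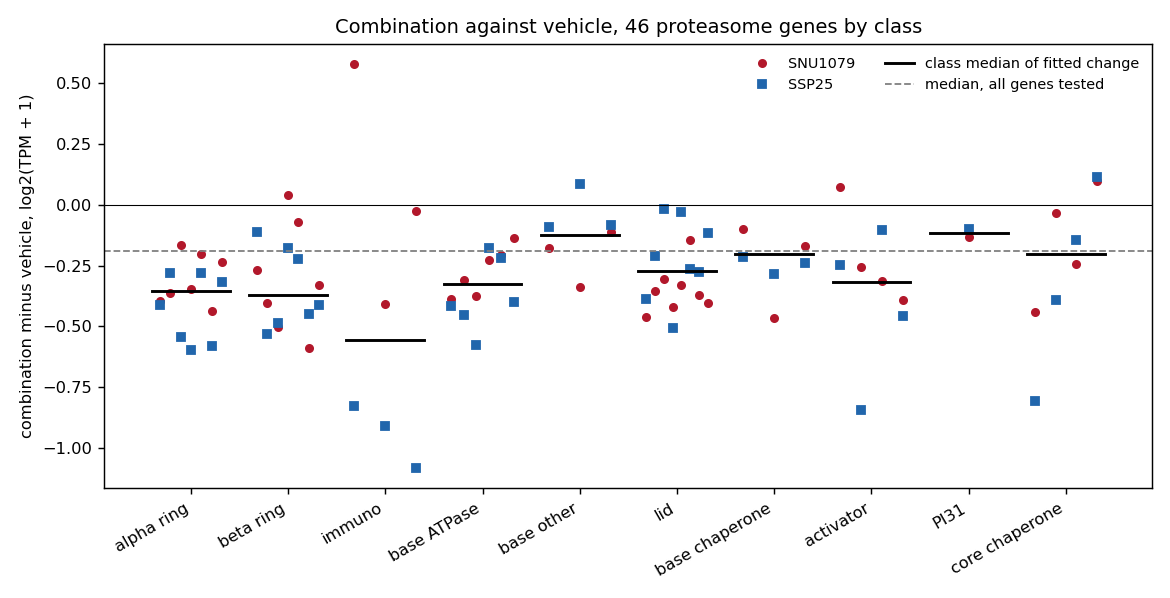
Each point is 1 gene in 1 cell line (circles SNU1079, squares SSP25), as the combination minus vehicle on the log2(TPM + 1) scale, grouped by subunit class, with black bars for class medians and a dashed line for all genes tested. Points of the 14 core genes lie below 0 in both lines except PSMB4 in SNU1079, while the 3 immunoproteasome genes spread from 0.58 in SNU1079 to −1.08 in SSP25.

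How far below 0 these medians lay depended on the scaling. Rescaling without the mitochondrial genome put the core at −0.29, base and lid at −0.19 and all genes at −0.13. Quantile normalization, which gives every library the same distribution, put the core at −0.18 with 12 of 14 genes negative, base and lid at −0.04 with 10 of 17 negative, and all genes at 0.001. The 46 genes together had a median of −0.27 with 45 negative before it and −0.07 with 28 negative under it. Of all 16060 genes tested 11732 were negative before it, and their number under it was not counted. Under it the 3 non-ATPase base genes turned to 0.09 and the base and core chaperones to 0.02 each, so their direction rests on the scaling. The core median stayed more than 0.1 below that of all genes in each of the 3 scalings.

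Within the core, the catalytic subunits moved unequally. PSMB7, with the trypsin-like site, had 115, 137, 139 and 145 TPM in SNU1079 with the combination, BETp, mTORi and vehicle, and 305, 346, 377 and 407 TPM in SSP25. Its difference between the combination and vehicle was −0.37 ± 0.09 (limma adjusted p = 0.0697), with the combination lowest in each line. PSMB5, with the chymotrypsin-like site that proteasome inhibitor drugs bind, had 168, 172, 181 and 176 TPM in SNU1079 and 177, 192, 203 and 207 TPM in SSP25. Its difference was −0.15 ± 0.09 (adjusted p = 0.329), from −0.07 in SNU1079 and −0.22 in SSP25.

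Chaperones that build the particle were mixed. PSMG1, which pairs with PSMG2 to assemble the alpha ring, had 43.15, 49.7, 54.3 and 58.9 TPM in SNU1079 with the combination, BETp, mTORi and vehicle, and 85.8, 114, 109 and 151 TPM in SSP25. It was lowest with the combination and highest with vehicle in both lines, at −0.63 ± 0.12 (limma adjusted p = 0.0544). PSMG4, also a chaperone of core assembly, had 34.7, 38.0, 37.1 and 32.4 TPM in SNU1079 and 47.6, 41.6, 47.2 and 43.9 TPM in SSP25. It was the only member higher in both lines, at 0.11 ± 0.12 (adjusted p = 0.599).

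The combination library was the lowest of the 4 for 35 of 46 genes in SNU1079 (43.6% of all genes), for 36 in SSP25 (39.2%) and for 27 in both lines at once (21.9%). Vehicle was the highest for 17 genes in SNU1079 (36.9% of all genes), for 38 in SSP25 (44.1%) and for 15 in both (18.6%).

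With BETp alone, set against vehicle, 0 of 47 members were called (limma, background 0.00623%), with 1 member at an unadjusted p under 0.05 (8.9% of all genes). That member was PSMG1, at −0.32 ± 0.12 (adjusted p = 0.525). Both lines were lower for 22 of 47 (38.1% of all genes) and higher for 5 (18.2%). The highest shared values were in PSMC5, a base ATPase, at 0.19 ± 0.10, and PSMD2, at 0.13 ± 0.13. PSMC5 had 199 TPM with BETp against 179 TPM with vehicle in SNU1079, and 194 TPM with BETp against 166 TPM with vehicle in SSP25. The median of the 46 genes was −0.06, with −0.07 for all genes. Over all 47 members the median ran from −0.12 to −0.02 with 1 library left out.

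mTORi against vehicle called 0 of 47 members (background 0.0125%), with 10 at an unadjusted p under 0.05 (10.3% of all genes). Both lines were lower for 35 of 47 (41.5%) and higher for 1 (12.2%), and the median of the 46 genes was −0.14 against −0.11 for all genes. With quantile normalization it was −0.03 with 33 of 46 genes negative, and 0.00 for all genes, whose negative share was not counted. The lowest values were in 2 activators, PSME2 at −0.50 ± 0.16 (limma adjusted p = 0.417) and PSME4 at −0.49 ± 0.15 (adjusted p = 0.417). PSMG4 was the only member higher in both lines, at 0.15 ± 0.12.

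Averaging each drug over the presence of the other used all 8 libraries, those with the drug against those without it. Libraries of a line that shared a drug thus counted as replicates, although none was a repeated culture. For mTORi 1 of 47 members fell, PSMB6 at −0.335 ± 0.06 (limma adjusted p = 0.0461), beside a background of 0.884% of all genes called lower and 1.05% in either direction. Of 47 members 26 had an unadjusted p under 0.05 (22% of all genes), and 41 were lower in both lines (47.6%). PSMD11, a lid scaffold, at −0.35 ± 0.06 (adjusted p = 0.0503), PSMB3, at −0.32 ± 0.06 (adjusted p = 0.0503), and PSME2, at −0.61 ± 0.11 (adjusted p = 0.052), lay just past the threshold. The call of PSMB6 was lost with any 1 library left out, and the 5 TPM filter called 5 members.

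PSMD11 had 77.4 and 86.6 TPM in the SNU1079 libraries with mTORi present (combination and mTORi), against 109 and 107 TPM in those without it (BETp and vehicle). In SSP25 it had 71.0 and 75.9 TPM with mTORi present, against 88.4 and 93.4 TPM without it. The libraries with and without mTORi did not overlap within either line.

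The averaged BETp effect called 0 of 47 members (background 1.82%, with 1.36% lower and 0.461% higher), with 12 at an unadjusted p under 0.05 (22.8% of all genes). All 14 core genes were lower in both lines, against 43.1% of all genes, and 10 of 17 base and lid genes were. The means of all 14 core genes were also below 0 with quantile normalization, where their median was −0.06 and that of base and lid turned to 0.02. The medians without it were −0.13 for the core, −0.07 for base and lid and −0.08 for all genes, and 3 of 47 members were higher in both lines (20.1% of all genes). PSMG1, at −0.33 ± 0.08 (limma adjusted p = 0.0706), and PSMC3, a base ATPase, at −0.25 ± 0.08 (adjusted p = 0.126), had the lowest shared values, and the highest, in PSME3 and PSMC4, were 0.03 and 0.02.

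Between the combination and each single drug no member was called. Against BETp there were 0 calls among all 16060 genes (0%), with 21 of 47 members at an unadjusted p under 0.05 (11.5% of all genes) and 40 of 47 lower in both lines (45.1%). PSME2 at −0.71 ± 0.16, PSMB9 at −0.57 ± 0.25 and PSMB3 at −0.40 ± 0.08 (limma adjusted p = 0.337, 0.442 and 0.337) were among the lowest, and the median was −0.24 against −0.12 for all genes, or −0.10 with quantile normalization. Against mTORi, where the background was 0.0125%, 9 of 47 had an unadjusted p under 0.05 (13.4% of all genes). All 14 core genes were lower in both lines, against 38.6% of all genes, though 13 of 14 had a mean below 0 with quantile normalization. PSME4 was the only member higher in both (20% of all genes), at 0.06. PSMB8 was the lowest of the 46 with lower values in both lines, at −0.41 ± 0.18 (adjusted p = 0.385). These comparisons share the combination libraries.

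Departure from additivity, meaning what is left of the combination effect after subtracting the BETp and mTORi effects, called 0 of 47 members and 0 of all genes (0%), with 0 members at an unadjusted p under 0.05, against 2% of all genes. Both lines were below 0 for 26 of 47 (25.2% of all genes) and above 0 for 3 (22.6%), and the core median was −0.11 with −0.01 for all genes. PSMC5 had the lowest value of the 46, −0.27 ± 0.14 (limma adjusted p = 1), with −0.33 in SNU1079 and −0.21 in SSP25, and PSMD5 the highest shared by both lines, 0.13.

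The activators did not follow one pattern. PSME2, the beta subunit of PA28, had 134 TPM with the combination and 116 TPM with mTORi in SNU1079, against 211 TPM with BETp and 159.6 TPM with vehicle. In SSP25 it had 88.55 TPM with the combination and 109.55 TPM with mTORi, against 152 TPM with BETp and 160.1 TPM with vehicle. Libraries with mTORi lay below those without it in both lines. PSME1, its alpha partner, had 332, 341, 306 and 316 TPM in SNU1079 with the combination, BETp, mTORi and vehicle, and 172, 193, 188 and 204 TPM in SSP25. Its lines did not overlap, and all of its SNU1079 values lay above those of SSP25. The ratio of PSME2 to PSME1 was 0.402, 0.62, 0.379 and 0.505 in SNU1079, and the SSP25 ratios were 0.516, 0.784, 0.582 and 0.784.

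PSME3, the nuclear PA28 gamma, had 113, 162, 127 and 141 TPM in SNU1079 with the combination, BETp, mTORi and vehicle, and 92.7, 95.02, 84.2 and 99.7 TPM in SSP25. The lowest library was the combination in SNU1079 and mTORi in SSP25. PSME4, the activator PA200, had 13.8, 20.65, 13.7 and 18.5 TPM in SNU1079 and 16.1, 18.1, 14.8 and 22.55 TPM in SSP25, with both mTORi-containing libraries below both others in each line. Averaged over BETp, mTORi came with −0.42 ± 0.10 for PSME4 (limma adjusted p = 0.0746) and −0.23 ± 0.08 for PSME3 (adjusted p = 0.159).

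The 3 immunoproteasome genes had the largest differences between the lines in BETp effect among the members, although none passed the test. No treatment was repeated within a line, so tests of a line difference in a drug effect had no true replicates. The effects of a drug with and without the other drug stood in for them. Errors and p-values of these tests measured how far such effects differed within a line, not the spread among repeated cultures. PSMB10 (chromosome 16, 67968409 to 67970767, minus strand) had 42.0 TPM with the combination and 46.2 TPM with BETp in SNU1079, against 26.8 TPM with mTORi and 27.8 TPM with vehicle. In SSP25 it had 28.5 TPM with the combination and 36.1 TPM with BETp, against 43.0 TPM with mTORi and 51.3 TPM with vehicle. Libraries with BETp lay above those without it in SNU1079 and below them in SSP25. The averaged BETp effect was 0.67 in SNU1079 and −0.54 in SSP25, a difference of 1.21 ± 0.12 with an unadjusted p of 0.000119 that did not pass over all genes (limma adjusted p = 0.144).

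PSMB9 (chromosome 6, 32811913 to 32827628, plus strand) had 48.05, 63.4, 40.2 and 49.0 TPM in SNU1079 with the combination, BETp, mTORi and vehicle, and 104, 176, 168 and 222 TPM in SSP25. BETp came with higher values in SNU1079, whether mTORi was present or not, and with lower values in SSP25. The difference between the lines in its BETp effect was 0.81 ± 0.15 (limma adjusted p = 0.204). PSMB8 (chromosome 6, 32808494 to 32812456, minus strand) had 74.8, 108, 80.2 and 99.7 TPM in SNU1079 and 109, 152, 179.7 and 206 TPM in SSP25. Its averaged BETp effect was 0.01 in SNU1079 and −0.57 in SSP25, a difference of 0.58 ± 0.14 (adjusted p = 0.266). PSMB8 and PSMB9 overlap on opposite strands in the annotation, and since it is not given whether counting used strand, reads in the overlap may be split between them.

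**Figure D2:**
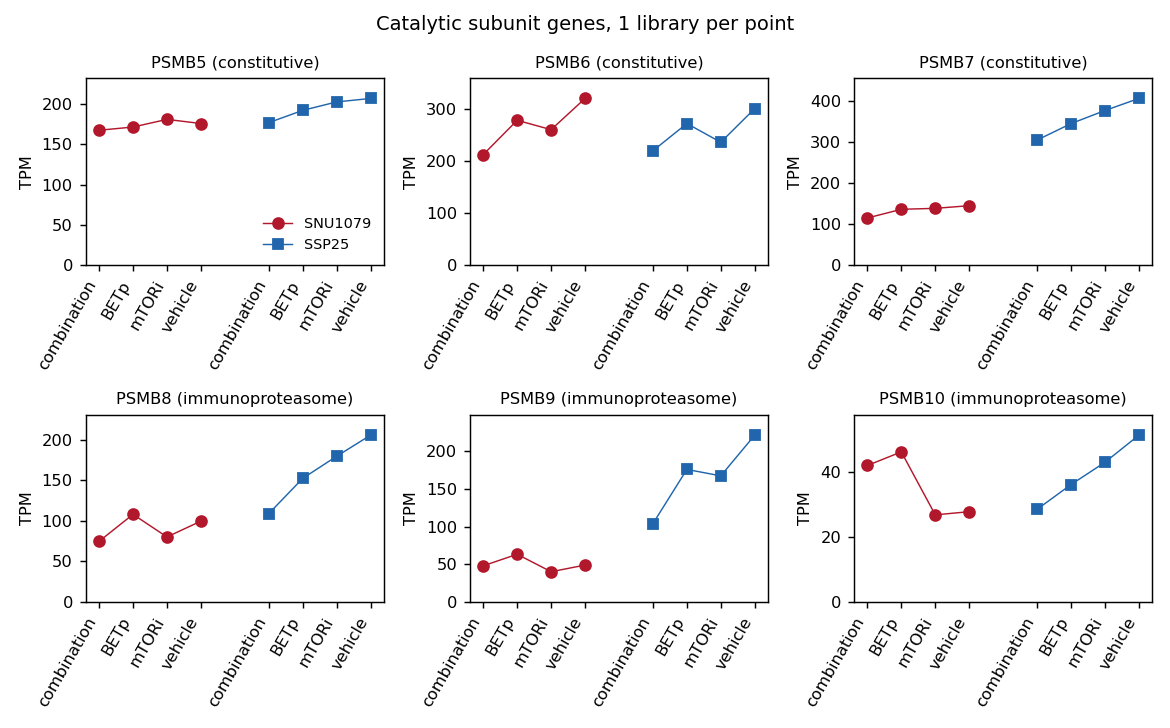
TPM of the 3 constitutive catalytic genes (upper panels) and their immunoproteasome counterparts (lower panels), 1 library per point, in SNU1079 (circles) and SSP25 (squares) with the combination, BETp, mTORi and vehicle from left to right. Lines only join points of 1 cell line, and PSMB10 is higher with BETp present in SNU1079, at 42.0 and 46.2 TPM, and lower in SSP25.

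Across all genes, 1 of 16060 was called for the line difference in BETp effect (0.00623%) and 0 of 47 members, with 5 members at an unadjusted p under 0.05, against 12.4% of all genes. Those 5 were PSMB10, PSMB9, PSMB8, PSME2 at 0.49 ± 0.13 (limma adjusted p = 0.275) and PSME1 at 0.22 ± 0.08 (adjusted p = 0.377). The count of 5 of 47 was no higher than the share among all genes. None of the 14 core and none of the 17 base and lid genes reached an unadjusted p under 0.05. With a filter at 5 TPM PSMB10 was called (limma adjusted p = 0.0357), again without repeated cultures.

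**Figure D3:**
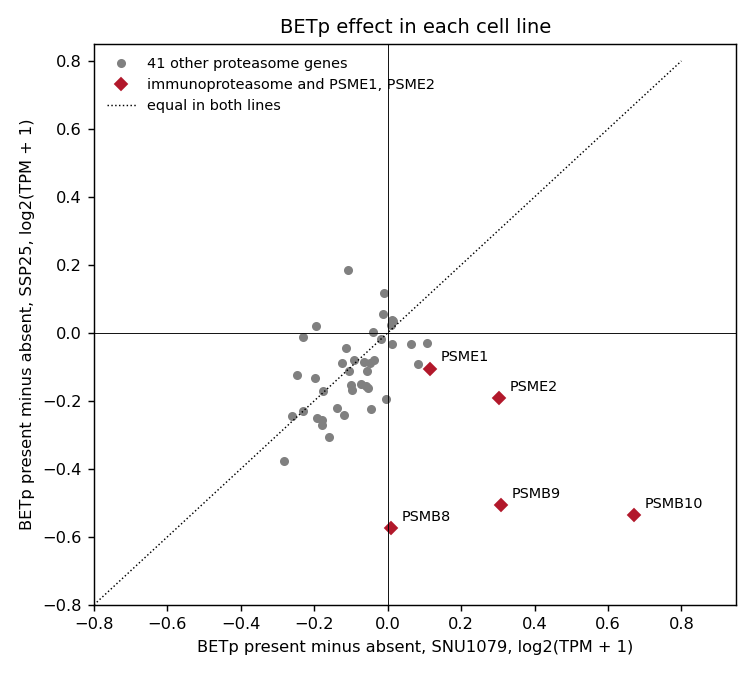
BETp effect averaged over mTORi in SNU1079 (horizontal) and SSP25 (vertical), as BETp present minus absent on the log2(TPM + 1) scale, 1 point per gene for 46 genes, with a dotted line where both lines are equal. PSMB10 lies at 0.67 and −0.54, PSMB9 at 0.31 and −0.51 and PSMB8 at 0.01 and −0.57, and most other genes lie near the dotted line.

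Ratios to the constitutive counterparts showed how the mix of transcripts differed. PSMB10 over PSMB7 was 0.364 with the combination and 0.338 with BETp in SNU1079, against 0.193 with mTORi and 0.191 with vehicle. In SSP25 it was 0.0933 with the combination and 0.105 with BETp, against 0.114 with mTORi and 0.126 with vehicle. PSMB9 over PSMB6 was 0.226, 0.228, 0.154 and 0.153 in SNU1079 and 0.474, 0.648, 0.71 and 0.737 in SSP25. PSMB8 over PSMB5 was 0.446, 0.63, 0.443 and 0.566 in SNU1079 and 0.615, 0.793, 0.886 and 0.993 in SSP25. Each immunoproteasome transcript was below its counterpart in every library, and the combination had the lowest ratio for all 3 pairs in SSP25.

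The promoters of PSMB10 and PSME2 are shown because their line differences were among the largest and both carry a pair of GAAA runs with any 2 bases between them, letters found in interferon-type elements and shown in capitals. The 250 bases before the RefSeq start of each are printed 5′ to 3′ (GRCh38.p14, PSMB10 chr16:67936851-67937100 and PSME2 chr14:24146611-24146860, both minus strand).

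PSMB10: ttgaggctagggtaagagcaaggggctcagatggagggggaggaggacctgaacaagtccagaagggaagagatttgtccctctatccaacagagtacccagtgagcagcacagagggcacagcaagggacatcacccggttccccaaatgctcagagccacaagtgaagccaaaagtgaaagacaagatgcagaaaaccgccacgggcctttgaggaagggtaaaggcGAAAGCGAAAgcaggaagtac

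PSME2: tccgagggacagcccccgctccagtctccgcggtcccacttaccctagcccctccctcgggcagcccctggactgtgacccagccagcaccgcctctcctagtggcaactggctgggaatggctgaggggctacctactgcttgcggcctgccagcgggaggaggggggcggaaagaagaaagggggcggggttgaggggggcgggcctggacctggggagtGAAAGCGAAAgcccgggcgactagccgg

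Both held the same 10 letters, GAAAGCGAAA, beginning 21 bases before the start in PSMB10 and 28 in PSME2. The pair of GAAA runs, or its reverse with TTTC, lay on either strand in the 300-base windows of 7 of 41 member genes (17.1%), against 4.4% of all 27305 genes. The 7 were PSMB10, PSMB8, PSME1, PSME2, PSMA4, PSMB4 and PSMG4. The window of PSMB9 held none.

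For mTORi, 0 of 47 members were called for a difference between the lines, among 0% of all genes, and 5 of 47 had an unadjusted p under 0.05 (14.2% of all genes). The lowest p was that of the lid gene PSMD13, with −0.29 in SNU1079 and 0.00 (−0.0005) in SSP25 (limma adjusted p = 0.297). The immunoproteasome genes had mTORi effects of the same sign in both lines, with PSMB9 at −0.34 in SNU1079 and −0.58 in SSP25.

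SNU1079 against SSP25, taken over all 4 treatments, compared the lines themselves. No treatment was repeated within a line, so the differently treated libraries of each line stood in for replicates. The p-values of this comparison therefore measured only how far the line difference varied among treatments, not among repeated cultures. Of 47 members 24 were lower and 7 higher in SNU1079 (limma, adjusted p under 0.05), beside a background of 35.8% of all genes called lower and 38.2% called higher, and 74% in either direction. In all 4 treatments 25 members were lower (37.2% of all genes) and 10 higher (39.8%). The median of the 46 genes was −0.38, against 0.05 for all genes, and it was −0.15 with quantile normalization, where the base and lid median turned to 0.06 against −0.14 without it. The tables of the lines were deposited separately, and libraries of a line cannot be told apart from whatever was done together with it.

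PSMC3, a base ATPase (chromosome 11, 47440320 to 47448024, minus strand), had 66.3, 81.7, 90.3 and 86.4 TPM in SNU1079 with the combination, BETp, mTORi and vehicle, against 224, 292, 275 and 335 TPM in SSP25. PSMD13, a lid subunit (chromosome 11, 236966 to 252984, plus strand), had 71.1, 87.8, 72.7 and 88.1 TPM in SNU1079, against 260.7, 249.45, 252 and 264 TPM in SSP25. No library of SNU1079 reached any of SSP25 for either gene. The differences were −1.78 ± 0.08 (limma adjusted p = 1.74e-06) and −1.68 ± 0.08 (adjusted p = 3.02e-06).

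PSMA1, an alpha ring subunit (chromosome 11, 14526420 to 14665181, minus strand), had 83.6, 104, 103 and 110.3 TPM in SNU1079, against 249.97, 281, 299 and 333 TPM in SSP25, a difference of −1.53 ± 0.06 (limma adjusted p = 1.56e-06). PSMB7 (chromosome 9, 127115744 to 127177723, minus strand), whose values are given above, differed by −1.41 ± 0.06 (adjusted p = 1.81e-06). Both were separated in every library. PSMD5 (chromosome 9, 123577774 to 123605229, minus strand) had 11.6, 13.9, 13.1 and 16.4 TPM in SNU1079, against 37.1, 42.7, 33.9 and 45.4 TPM in SSP25, a difference of −1.47 ± 0.09 (adjusted p = 7.6e-06). PSMB2 (chromosome 1, 36065142 to 36107127, minus strand) had 57.3, 76.9, 72.5 and 76.2 TPM in SNU1079, against 135, 165, 175 and 195 TPM in SSP25, a difference of −1.23 ± 0.07 (adjusted p = 6.16e-06). In each of these genes the lines did not overlap. PSMC2, another base ATPase (chromosome 7, 102969017 to 103010793, plus strand), had 70.5, 83.6, 67.7 and 87.65 TPM in SNU1079, against 131, 157, 151 and 179.8 TPM in SSP25, and differed by −0.99 ± 0.07 (adjusted p = 1.99e-05).

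PSMA2, an alpha ring subunit (chromosome 7, 42956427 to 42971784, minus strand), went the other way, with 259, 353, 297 and 333 TPM in SNU1079, against 118, 135, 129.9 and 144 TPM in SSP25, and differed by 1.22 ± 0.07 (limma adjusted p = 5.41e-06). Its row carries a description of an uncharacterized protein in the tables, so its reads may include a neighboring or merged model. Subunits of one ring therefore differed in opposite directions, PSMA1 and PSMA2 among them. PSME1 was higher in SNU1079 at 0.77 ± 0.07 (adjusted p = 7.05e-05) and PSME3 at 0.53 ± 0.09 (adjusted p = 0.00133), whereas PSMB9 at −1.69 ± 0.17 (adjusted p = 0.000103) and PSMB8 at −0.81 ± 0.13 (adjusted p = 0.000908) were lower. PSMB10 did not pass, at −0.16 ± 0.24 (adjusted p = 0.572).

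The summed level of 4 immune cell markers was also lower in SNU1079, at 0.87 to 12.71 TPM, than in SSP25, at 14.35 to 32.64 TPM, where it was nearly all CD14. In SNU1079 the sum was mostly CD79A. That marker went the other way, at 0.87 to 11.7 TPM in SNU1079 and 0 to 0.22 TPM in SSP25. The defining marker PTPRC was at 0.24 TPM or less and the T-cell gene CD3E at 0.08 TPM or less in every library.

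More than 1 lower on the log2 scale in SNU1079 were 8 of 46 members, among them all 5 on chromosomes 9 and 11. The share of all genes past that cutoff was not counted, so these counts do not set the members apart from other genes. Other tested genes of the whole chromosome had medians of −0.66 on chromosome 9 and −0.55 on chromosome 11. On chromosomes 1 and 7 these medians were −0.17 and 0.08. For each member, the median difference of other tested genes within 5 Mb was taken from 13250 genes with a GRCh37 position. It was −1.17 around PSMC3 (44 genes), −1.05 around PSMD13 (64 genes), −1.28 around PSMA1 (48 genes), −0.84 around PSMB7 (93 genes), −0.66 around PSMD5 (41 genes) and −0.79 around PSMB2 (100 genes). Around PSMA2 it was 1.03 (46 genes). It was −0.07 around PSMB9 and PSMB8 (173 genes), near 0 although both genes were lower in SNU1079.

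PSMG1 (chromosome 21), at −1.12, had neighbors at 0.34. Over all 46 members the sign of the difference was that of the neighbors in 28. The matching share of all genes was not counted, so this count does not set the members apart either. These medians are descriptions, since neighbors on a chromosome are not independent, and the number of copies of these regions was not measured here.

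**Figure D4:**
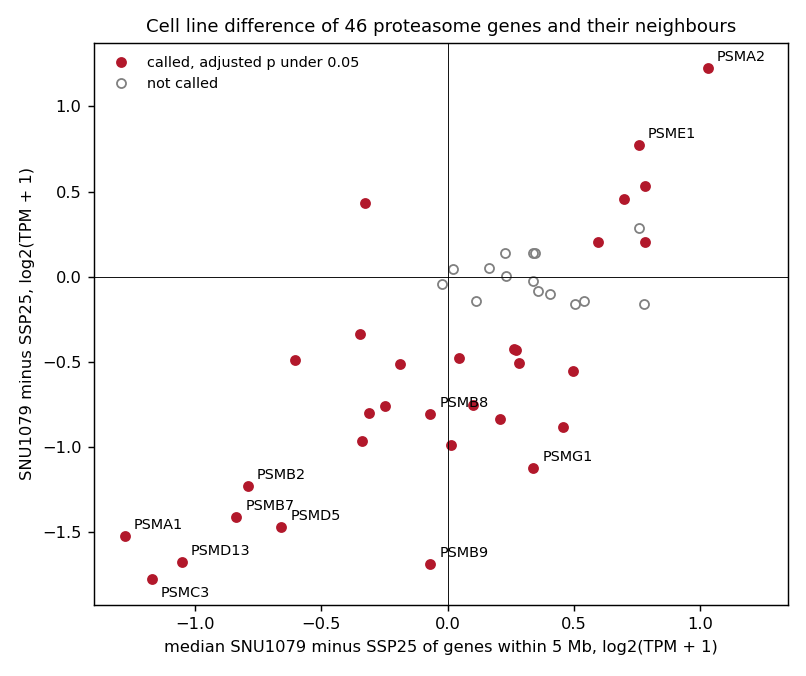
SNU1079 minus SSP25 on the log2(TPM + 1) scale for 46 genes (vertical), against the median of the same difference over other tested genes within 5 Mb (horizontal), with filled points for genes called at an adjusted p under 0.05. PSMC3, PSMA1 and PSMD13 are low on both axes, PSMA2 is high on both, and PSMB9 is low at −1.69 while its neighbors lie at −0.07.

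Genes that work with the proteasome but are outside the naming rule were read from lists of 17 proteasome partners, 12 genes of the NFE2L1 route, 6 ubiquitin and ubiquitin-activating genes and 13 genes of antigen presentation, and 0 of these were called in any drug comparison (limma). At an unadjusted p under 0.05 there were 9 of 17, 4 of 12, 0 of 6 and 3 of 13 for the combination against vehicle, in the order of these lists, against 25.8% of all genes. For the combination against vehicle, 14 of 17 partners were lower in both lines, against 51% of all genes, with a median of −0.27 beside −0.19 for all genes. ADRM1, a ubiquitin receptor of the cap, was at −0.20 ± 0.09 and POMP, the core maturation protein, at −0.27 ± 0.10 (limma adjusted p = 0.19 and 0.166). The NFE2L1 list had a median of −0.07 with 5 of 12 lower in both lines, a smaller share than among all genes.

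NFE2L1 itself had 129.2, 142, 129.1 and 157 TPM in SNU1079 with the combination, BETp, mTORi and vehicle, and 143, 154, 147 and 171 TPM in SSP25. It was highest with vehicle in both lines and differed by −0.27 ± 0.09 between the combination and vehicle (limma adjusted p = 0.121). NFE2L2, the related antioxidant regulator NRF2, differed by −0.03 ± 0.11. Between the lines NFE2L2 was higher in SNU1079 by 1.31 ± 0.08 (adjusted p = 6.98e-06), while NFE2L1 did not pass, at −0.14 ± 0.06 (adjusted p = 0.0692).

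Antigen presentation genes that use immunoproteasome products were called lower in SNU1079 for 8 of 13 and higher for 2, against 35.8% of all genes called lower, 38.2% higher and 74% in either direction. B2M, the light chain of MHC class I, had 767, 1019, 532 and 731 TPM in SNU1079 with the combination, BETp, mTORi and vehicle, against 6414, 6114.5, 6707 and 6745 TPM in SSP25, a difference of −3.13 ± 0.15 (limma adjusted p = 2.99e-06). TAP1, the peptide transporter subunit encoded next to PSMB9, had 33.8, 42.4, 25.8 and 35.0 TPM in SNU1079, against 73.1, 83.1, 82.5 and 94.3 TPM in SSP25, a difference of −1.27 ± 0.12 (adjusted p = 6.99e-05). ERAP1 and ERAP2, the aminopeptidases that trim peptides, were the 2 called higher, at 1.31 and 1.85.

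For the line difference in BETp effect, 3 of the 13 had an unadjusted p under 0.05 (12.4% of all genes), 2 were below 0 and the median was 0.15, with 0.02 for all genes. The line difference was 0.61 ± 0.07 for B2M, 0.65 ± 0.10 for IRF1, an interferon-induced transcription factor, and 0.50 ± 0.11 for TAP1 (limma adjusted p = 0.162, 0.188 and 0.239), and none passed. IRF1 had 54.9 and 74.6 TPM in SNU1079 with the combination and BETp, against 44.3 and 59.65 TPM with mTORi and vehicle. In SSP25 it had 43.4 and 64.7 TPM with the combination and BETp, against 57.0 and 79.75 TPM with mTORi and vehicle. At equal mTORi status, BETp came with the higher IRF1 value in SNU1079 and the lower one in SSP25.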

How the data were processed

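RNA was sequenced from 8 cultures, and the authors deposited gene-level TPM values in 1 table per cell line, with 56269 gene rows each. Libraries were strand-specific per the labels, the build was GRCh37, and DESeq2 and edgeR are named in the processing notes of the submitters. Aligner and annotation: not given in the sources used here. Groups came from the sample titles and treatments.

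Values were taken as log2(TPM + 1), and a gene was kept if 2 libraries reached 1 TPM. In R 4.3.3, limma 3.58.1 models were fitted (trended eBayes, two-sided, Benjamini-Hochberg over 16060 genes, threshold 0.05), with treatment and cell line (3 residual degrees of freedom), with both drugs and line (4) for averaged effects, and with line-by-drug terms (2) for line differences. Standard errors of pairwise contrasts come from the whole fit. Cell line paired the samples, as replicate numbers mark the line, and libraries correlated over genes at 0.975 to 0.986 inside a line, but at 0.789 to 0.807 across lines. Models were tested on simulated data.

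Members, lists and tests were chosen with earlier results of these data known. Genes given per library were the catalytic and immunoproteasome subunits, the activators, members called in a comparison (up to 8 of smallest adjusted p) and the 2 largest shared rises and falls. Partner genes are given as counts, with values for called or preselected ones. GRCh37 coordinates were read from GENCODE 44 by gene symbol, which matched 47 members. Promoters are RefSeq windows on GRCh38.p14. Of the 47 members, PSMA7, PSMB1, PSMB6, PSMB7, PSMD4 and PSMG3 had no matched window. Alternatives were a pseudocount of 0.1, no filter, a 5 TPM filter, quantile normalization, rescaling without the mitochondrial genome, robust eBayes without trend, no cell line block and leaving out each library.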

Additional observations from a re-analysis of the deposited data

Results flagged for a closer look

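For 8 members a drug effect had opposite signs in the lines, in both pairs of libraries that differ by that drug. This was so for the BETp effect in 4 of 47 members (10.2% of all genes), each higher in SNU1079 and lower in SSP25, a direction found in 5.66% of all genes. Line differences, SNU1079 minus SSP25, were 1.21 for PSMB10, 0.81 for PSMB9, 0.49 for PSME2 and 0.22 for PSME1, with limma adjusted p-values of 0.144, 0.204, 0.275 and 0.377. For the mTORi effect it was so in 4 of 47 members (12.2% of all genes), with differences of 0.88 for PSMC3IP, 0.36 for PSMG2, 0.17 for PSMB4 and 0.14 for PSMD9 (adjusted p = 0.319, 0.388, 0.408 and 0.584). None passed the test of the difference, and both counts were close to the share among all genes.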

How the results depend on the processing

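The 3 members called for the combination against vehicle became 0 with a pseudocount of 0.1, with no filter on low values, with quantile normalization, with rescaling without the mitochondrial genome, with robust eBayes and with no replicate block, and 6 with a filter at 5 TPM. With 1 of the 8 libraries left out, the lone library of that treatment being assumed to vary like the others, the count ran from 0 to 0. The 1 member called for the averaged mTORi effect likewise became 0 under the same 6 alternatives and 5 with the 5 TPM filter, and ran from 0 to 0 with a library left out. The 0 members called for the line difference in BETp effect became 1 (PSMB10) with the 5 TPM filter. SNU1079 against SSP25 stayed within 29 to 37 calls. Counts of the other comparisons were 0 in each alternative run. The fit without the block could not be made for the line term and the line differences. Leaving out a library tested fewer samples, and the filters changed the number of genes tested. For the rest the cause was not tested. Since TPM keeps no read number, the precision that depth sets could not be given.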

Other observations

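Rows named after the same genes but not protein-coding were left out of all comparisons. Of 31 pseudogene rows 20 were listed at 0 in every library, and 4 reached 1 TPM in at least 2 libraries. The highest pseudogene value was 7.38 TPM for PSMC1P5, in the SNU1079 mTORi library. Reads of the subunit genes lost to such copies cannot be estimated from TPM. Of 5 antisense or intergenic rows 4 reached 1 TPM in at least 2 libraries. PSMA3-AS1, antisense to the alpha ring gene PSMA3, had 25.1, 23.7, 23.1 and 22.6 TPM in SNU1079 with the combination, BETp, mTORi and vehicle, and 10.4, 8.78, 8.62 and 11.1 TPM in SSP25. Each SNU1079 library lay above all SSP25 libraries for the antisense row, and also for PSMA3 itself, at 215 to 252 TPM in SNU1079 and 146 to 213 TPM in SSP25. Reads of the pair cannot be told apart if counting ignored strand.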
